A study of Mus musculus with 9 samples.

Results

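Described here are 50 mouse genes, the transcription factors Foxj1, Rfx2 and Rfx3 and genes for the moving parts of the motile cilium, among 37990 genes counted in E14 embryonic stem cells after Sin3a or Fam60a knockdown. The genes were a list of names, of which 48 matched the annotation by symbol and 2, Dnai1 and Dnai2, by an older symbol. Each was placed in 1 part of the cilium from its known role. Foxj1, Ccdc81 and Cfap44 had been seen among the genes most raised by Sin3a knockdown in these same libraries, so Sin3a-knockdown values of the members are given as a description, without a p-value. Of the 50 genes, 39 had enough reads to be tested, among 14465 tested genes, and the other 11 had at most 82 reads over the 9 libraries.

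A motile cilium bends because dynein motors, fixed in rows as outer and inner arms on the microtubule doublets of its core (the axoneme), slide the doublets past each other. The nexin link and the radial spokes turn sliding into bending, and the central pair of microtubules with its projections sets the pattern of the beat. Foxj1, a forkhead factor, is the activator on which motile cilia depend in airway, ependyma and embryonic node, and factors of the Rfx family bind X-box sequences in the promoters of many ciliary genes. The primary cilium that most other cells carry lacks the motility machinery.

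Sin3a holds together a repressor complex with histone deacetylases, of which Fam60a (now named Sinhcaf) is a subunit. The Sin3a-knockdown group, the Fam60a-knockdown group and the control group (T2SC in the labels, taken as the scrambled hairpin because its titles name no target) had 3 libraries each. All 3 groups, controls included, were E14 cells grown on gelatin in medium with serum and LIF, carried a pLKO.1 lentiviral hairpin with Polybrene at transduction, and were kept under puromycin before harvest after further passages. These are selected pools with a partial, lasting loss of the target, compared at 1 time. Total RNA was read from stranded libraries, and levels are given in CPM, the read count of a gene scaled to a common library total.

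The hairpins lowered their targets. Fam60a (Sinhcaf, chr6:148921035-148946467, minus strand) averaged 15.6 ± 2.66 CPM in the Sin3a-knockdown group, 5.73 ± 0.75 CPM in the Fam60a-knockdown group and 13.5 ± 0.47 CPM in controls (SD, n = 3 each), with a log2 fold change of -1.23 ± 0.23 (SE) in Fam60a knockdown (edgeR adjusted p = 0.0280). That call was lost with no filter on low counts (0.0539 in edgeR) and without Sin3a-knockdown replicate 1 or 2, any Fam60a-knockdown replicate or any control replicate, with adjusted p 0.0510 to 0.133 in edgeR. Sin3a (chr9:57072040-57128366, plus strand) averaged 126 ± 13.4, 217 ± 9.90 and 287 ± 21.9 CPM in the same order of groups, and its log2 fold change in Sin3a knockdown was -1.19 ± 0.11 (edgeR adjusted p = 0.00149). Every Fam60a-knockdown library also had less Sin3a than every control. The log2 fold change there was -0.40 ± 0.11 (edgeR adjusted p = 0.0964, and 0.00466 without Sin3a-knockdown replicate 3). Libraries held 5511453 to 7674887 counts, except Sin3a-knockdown replicate 3 with 2607872. That library stood apart in other ways, with a mean correlation of 0.885 to its own group, against 0.935 to 0.981 in the other libraries, and 90 mitochondrial reads, against 6268 to 7118. Many member fold changes in Sin3a knockdown are therefore also given without it, though not all. Between 1834 and 4309 reads per library fell on the members, and 44 to 47 of the 50 genes had at least 1 read. A count of 3 reads corresponded to 0.385 to 1.22 CPM, which is the floor for low members and covers counting error only.

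The X-box is the sequence by which Rfx factors are known to act, and promoter sequences of members show where it stands. RefSeq promoter windows (GRCm38.p6, 250 bases before to 50 after the start) were at hand for 40 of the 50 genes, in 45 windows. The X-box consensus, searched on both strands, was in 10 of the 45 member windows (22.2%), and in 611 of all 32851 windows (1.86%). The shorter RFX core GTTGCCA, which can lie within an X-box, was in 8 member windows (17.8%) and in 4.38% of all windows. The forkhead core TGTTTAC was in 3 member windows (6.67%) and in 3.65% of all windows. These matches are letters in a window, not binding. Shown first are Cfap44 (chr16:44394549-44394848, plus strand), Cfap52 (chr11:67965593-67965892, minus strand) and Rsph9 (chr17:46144151-46144450, minus strand), the members with an X-box among those past the threshold and higher in Sin3a knockdown. Tekt1 (chr11:72361833-72362132, minus strand) has an X-box and lower levels in both knockdowns, and Hydin (chr8:110266727-110267026, plus strand) has the RFX core and a lower level in Sin3a knockdown. Capitals mark the matches, and each sequence runs 5′ to 3′ along its gene.
Cfap44: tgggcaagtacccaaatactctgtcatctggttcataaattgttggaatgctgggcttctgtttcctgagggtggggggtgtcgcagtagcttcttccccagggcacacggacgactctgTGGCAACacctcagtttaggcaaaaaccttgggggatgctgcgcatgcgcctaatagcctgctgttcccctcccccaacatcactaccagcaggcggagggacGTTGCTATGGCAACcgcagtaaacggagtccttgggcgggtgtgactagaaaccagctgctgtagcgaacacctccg
Cfap52: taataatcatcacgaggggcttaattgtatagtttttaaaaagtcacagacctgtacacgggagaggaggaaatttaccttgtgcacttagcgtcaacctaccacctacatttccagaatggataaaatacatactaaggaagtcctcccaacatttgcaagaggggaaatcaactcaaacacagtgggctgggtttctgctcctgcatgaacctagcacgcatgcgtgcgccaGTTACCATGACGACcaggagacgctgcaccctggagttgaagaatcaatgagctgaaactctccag
Rsph9: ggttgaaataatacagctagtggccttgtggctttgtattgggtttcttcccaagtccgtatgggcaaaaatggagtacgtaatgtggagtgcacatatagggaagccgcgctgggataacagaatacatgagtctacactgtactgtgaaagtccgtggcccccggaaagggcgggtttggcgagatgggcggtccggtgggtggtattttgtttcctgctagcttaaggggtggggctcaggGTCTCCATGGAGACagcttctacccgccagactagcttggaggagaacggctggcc
Tekt1: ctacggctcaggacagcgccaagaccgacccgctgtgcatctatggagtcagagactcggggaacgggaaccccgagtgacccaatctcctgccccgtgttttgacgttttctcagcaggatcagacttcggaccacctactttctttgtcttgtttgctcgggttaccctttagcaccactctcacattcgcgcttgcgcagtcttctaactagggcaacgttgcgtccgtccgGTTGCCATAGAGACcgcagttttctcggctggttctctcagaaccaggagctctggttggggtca
Hydin: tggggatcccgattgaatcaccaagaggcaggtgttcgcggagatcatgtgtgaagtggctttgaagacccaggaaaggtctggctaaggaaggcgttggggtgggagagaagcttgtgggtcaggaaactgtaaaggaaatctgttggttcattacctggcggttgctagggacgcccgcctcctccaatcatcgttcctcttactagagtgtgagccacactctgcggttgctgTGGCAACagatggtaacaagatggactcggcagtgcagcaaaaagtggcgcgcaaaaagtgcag
In the first 4 windows the X-box begins 27, 16, 6 and 15 bases before the annotated start, and the RFX core of Hydin begins 14 bases before it. Among the 7 windows of members past the threshold and higher in Sin3a knockdown (4 of the 11 such members, Foxj1, Rsph1, Rsph4a and Ccdc81, had no window), 3 held the X-box (42.9%). The 5 windows of members past it and lower come from 3 genes, 3 of them overlapping windows of Tekt2, and 0 of them held it, while 7 of 33 windows of the other members did (21.2%). The RFX core was in 1 of the 7 (14.3%), 1 of the 5 (20%) and 6 of the 33 (18.2%). The rise of Cfap44, 1 of the 3 with the X-box, had been seen before the list was made. These shares by direction are therefore a description only. The other X-box windows belong to Rfx2, Dnah12, Dnali1, Dnaaf3, Zmynd10 and Spag17. Of these, Rfx2, Dnah12, Dnaaf3 and the untested Dnali1 had lower means than controls in both knockdowns. Zmynd10 had higher means in both, and Spag17 had too few reads to compare.

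Foxj1 (ENSMUSG00000034227, chr11:116330704-116335399, minus strand) was higher in both knockdowns than in controls. It had 27.7, 33.1 and 73.1 CPM in the Sin3a-knockdown libraries, 10.3, 13 and 11.9 CPM in the Fam60a-knockdown libraries and 3.42, 3.47 and 2.09 CPM in the controls. Every knockdown library lay above every control library, every Sin3a-knockdown library lay above every Fam60a-knockdown library, and Sin3a-knockdown replicate 3 was the highest of the 9. The corresponding reads were 182, 178 and 180 in Sin3a knockdown, 68, 101 and 75 in Fam60a knockdown and 21, 24 and 14 in controls. In Sin3a knockdown the mean was 14.9-fold that of controls, and 10.2-fold without replicate 3, with log2 fold changes of 3.88 ± 0.43 and 3.34 ± 0.25 (SE). In Fam60a knockdown Foxj1 rose 3.91-fold, by 1.96 ± 0.41 on the log2 scale (edgeR adjusted p = 0.0419 over all tested genes, higher in 3 of 3 libraries). The Fam60a comparison shares its controls with the Sin3a comparison. The adjusted p of the rise in Fam60a knockdown passed 0.05 when any Fam60a-knockdown replicate (0.108, 0.126 and 0.118 without replicates 1, 2 and 3), any control replicate (0.153, 0.149 and 0.126) or Sin3a-knockdown replicate 2 (0.0536) was left out, and over all alternatives it ranged between 1.62e-05 and 0.153. In bulk RNA, more cells with a transcript and more transcript per cell cannot be told apart, here and for every gene below.

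Rfx2 and Rfx3, which bind the X-box, were not past the threshold in either knockdown with all 9 libraries in edgeR. Rfx2 had 126, 117 and 77.2 CPM in the Sin3a-knockdown libraries, 116, 104 and 90.1 CPM in the Fam60a-knockdown libraries and 157, 132 and 135 CPM in the controls. Its levels in both knockdowns lay under the lowest control. Log2 fold changes were -0.40 ± 0.19 in Sin3a knockdown (-0.22 ± 0.11 without replicate 3) and -0.45 ± 0.19 in Fam60a knockdown (edgeR adjusted p = 0.284). Without Sin3a-knockdown replicate 3 in the model the edgeR adjusted p for Rfx2 in Fam60a knockdown was 0.0198, at a log2 fold change of -0.44. Rfx3 had 29, 37.7 and 15.4 CPM in the Sin3a-knockdown libraries, 15.1, 26.4 and 15.5 CPM in the Fam60a-knockdown libraries and 19.5, 29.2 and 17.1 CPM in the controls, and its 3 groups overlapped. Its log2 fold change was 0.33 ± 0.37 in Sin3a knockdown (0.60 ± 0.30 without replicate 3) and -0.21 ± 0.37 in Fam60a knockdown (edgeR adjusted p = 0.947). With the replicate block and without Sin3a-knockdown replicate 3, both genes were past the threshold in Sin3a knockdown in edgeR. Log2 fold changes there were 0.48 for Rfx3 and -0.28 for Rfx2, and 6975 of 14735 genes were called.

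**Figure D1:**
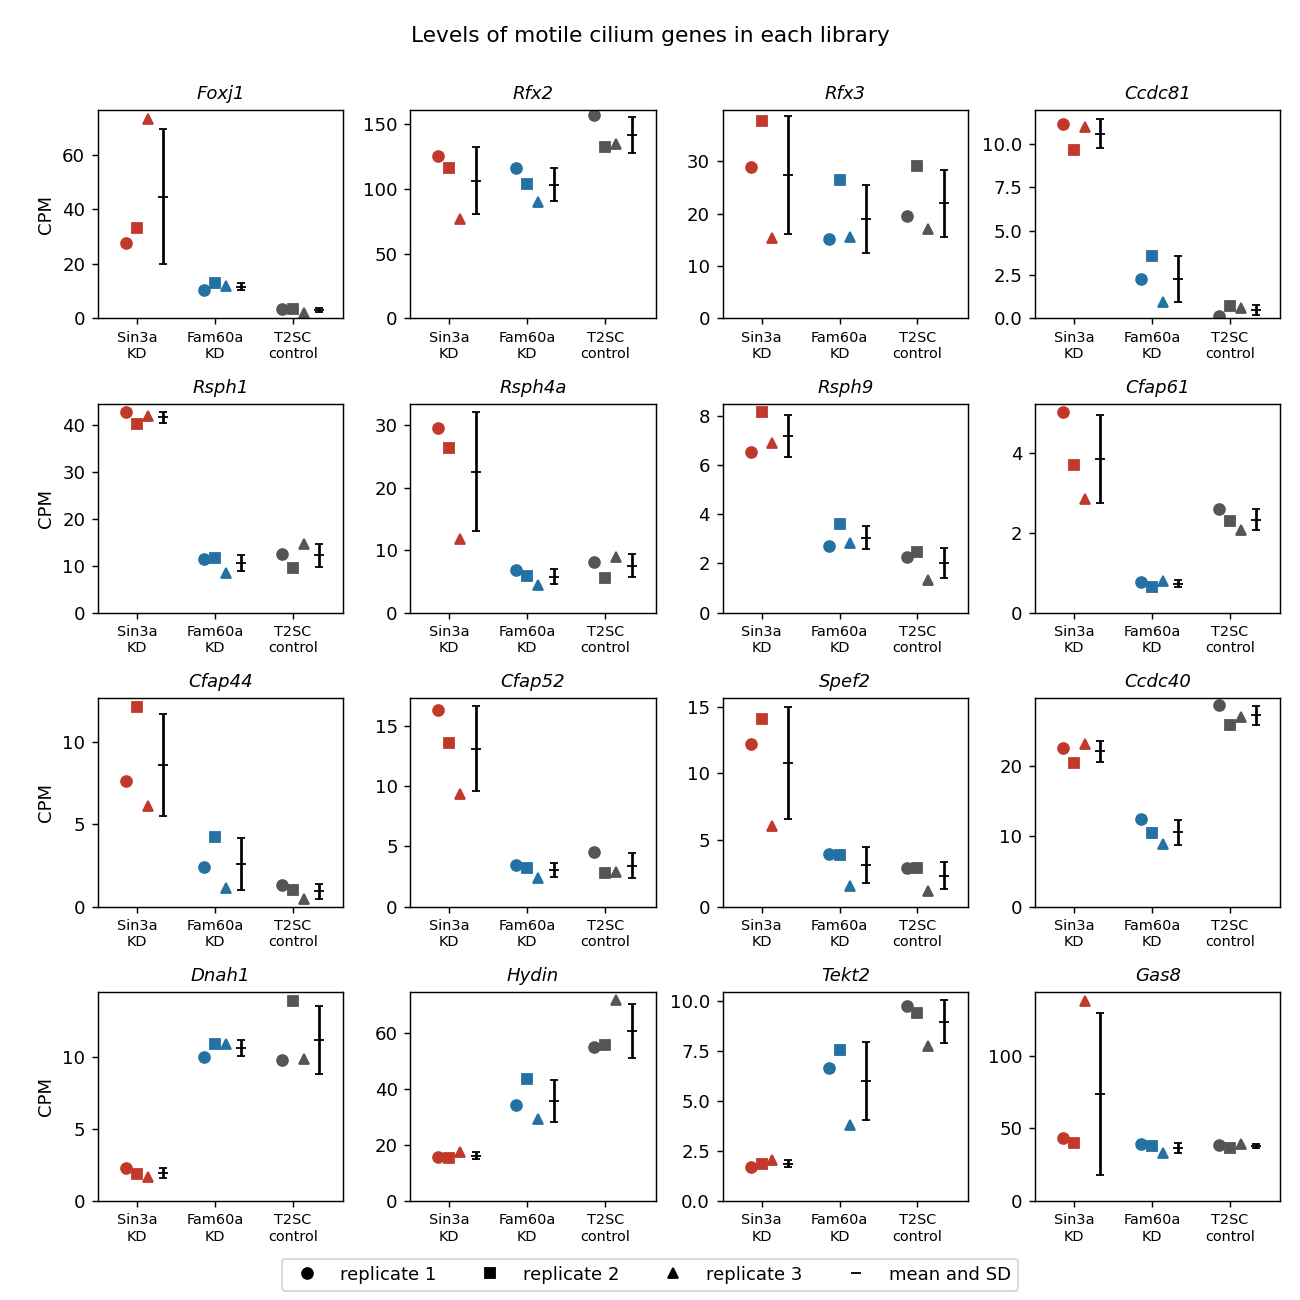
CPM of 16 members in each library (y axis, linear from 0), with Sin3a knockdown, Fam60a knockdown and T2SC control from left to right, symbols for replicates 1 to 3 and a bar for the mean and SD of 3 libraries. Foxj1 stands at 27.7 CPM or more in Sin3a knockdown and at 3.47 CPM or less in controls, Rsph1 is high only in the Sin3a-knockdown libraries, and Dnah1, Hydin and Tekt2 are lowest there.

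Radial spokes reach from the doublets to the central pair, and all 5 spoke genes had a higher mean in Sin3a knockdown than in the other groups. Rsph1 (chr17:31255019-31277383, minus strand), a protein of the spoke head, had 42.7, 40.3 and 41.8 CPM in the Sin3a-knockdown libraries, 11.5, 11.7 and 8.54 CPM in the Fam60a-knockdown libraries and 12.4, 9.54 and 14.6 CPM in the controls. The 3 Sin3a-knockdown libraries lay close together and far above the other 6, which overlapped. Its mean was 3.42-fold that of controls, with a log2 fold change of 1.77 ± 0.23 in Sin3a knockdown (1.77 ± 0.21 without replicate 3) and -0.20 ± 0.22 in Fam60a knockdown (edgeR adjusted p = 0.848). Rsph4a, another spoke-head protein, had 29.6, 26.4 and 11.8 CPM in the Sin3a-knockdown libraries, 6.80, 5.90 and 4.43 CPM in the Fam60a-knockdown libraries and 8.15, 5.49 and 8.94 CPM in the controls. Sin3a-knockdown replicate 3 was the lowest of its group but above all controls, and the log2 fold change was 1.60 ± 0.37 with that library and 1.90 ± 0.26 without it. Rsph9, the third head protein listed, had 6.56, 8.17 and 6.91 CPM in the Sin3a-knockdown libraries, 2.72, 3.59 and 2.85 CPM in the Fam60a-knockdown libraries and 2.28, 2.46 and 1.34 CPM in the controls, with a log2 fold change of 1.82 ± 0.32 in Sin3a knockdown and 0.59 ± 0.32 in Fam60a knockdown (edgeR adjusted p = 0.447). No 2 groups overlapped, with Sin3a knockdown highest and controls lowest.

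Cfap61 and Cfap206 belong to the spoke base, and Cfap61 was the 1 spoke gene past the threshold in Fam60a knockdown. Cfap61 (chr2:145934784-146215039, plus strand) had 5.03, 3.71 and 2.84 CPM in the Sin3a-knockdown libraries, 0.755, 0.642 and 0.791 CPM in the Fam60a-knockdown libraries and 2.61, 2.31 and 2.09 CPM in the controls. No 2 groups overlapped, with Fam60a knockdown lowest and Sin3a knockdown highest. Cfap61 fell by 1.66 on the log2 scale in Fam60a knockdown (SE 0.35, edgeR adjusted p = 0.0419, lower in 3 of 3 libraries), and stood at a log2 fold change of 0.76 ± 0.31 in Sin3a knockdown. The counts behind it were small, 33, 20 and 7 reads in Sin3a knockdown, 5 in each Fam60a-knockdown library and 16, 16 and 14 in controls. Its adjusted p in edgeR passed 0.05 with no filter on low counts (0.0852) and without any 1 library other than Sin3a-knockdown replicate 3 (0.0623 to 0.174), within a range of 0.00364 to 0.174 over all alternatives. Cfap206 averaged 5.49 ± 2.12 CPM in Sin3a knockdown, 1.66 ± 1.03 CPM in Fam60a knockdown and 3.49 ± 0.0813 CPM in controls (SD, n = 3 each), and did not pass the threshold in Fam60a knockdown (edgeR adjusted p = 0.347). Summed over the 5 spoke genes, levels were 66.6 to 91.3 CPM in Sin3a knockdown, 17.2 to 24.5 CPM in Fam60a knockdown and 23.3 to 30.4 CPM in controls.

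The central pair genes did not move as 1 group. Hydin (chr8:110266977-110610253, plus strand), a very large protein of a central pair projection, had 15.7, 15.2 and 17.5 CPM in the Sin3a-knockdown libraries, 34.3, 43.8 and 29.2 CPM in the Fam60a-knockdown libraries and 55.1, 55.7 and 72 CPM in the controls. No 2 groups overlapped, with Sin3a knockdown lowest and controls highest. Its log2 fold change was -1.92 ± 0.21 in Sin3a knockdown (-1.97 ± 0.20 without replicate 3) and -0.77 ± 0.20 in Fam60a knockdown (edgeR adjusted p = 0.0768, and 0.0153 without Sin3a-knockdown replicate 3). Spef2, a protein of another projection, stood on the other side of the controls with 12.2, 14.1 and 6.09 CPM in the Sin3a-knockdown libraries, 3.93, 3.85 and 1.58 CPM in the Fam60a-knockdown libraries and 2.93, 2.89 and 1.19 CPM in the controls. Its Sin3a-knockdown libraries lay above all others, at a log2 fold change of 2.23 ± 0.50 (2.49 ± 0.43 without replicate 3), and its log2 fold change in Fam60a knockdown was 0.42 ± 0.50 (edgeR adjusted p = 0.872).

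Spag6l, a central pair protein needed for ciliary beating in the mouse, had 8.69, 11 and 6.09 CPM in the Sin3a-knockdown libraries, 9.21, 6.16 and 4.74 CPM in the Fam60a-knockdown libraries and 3.42, 3.04 and 2.09 CPM in the controls. Both knockdowns lay above the controls and overlapped each other, and log2 fold changes were 1.61 ± 0.37 in Sin3a knockdown and 1.23 ± 0.36 in Fam60a knockdown. In Fam60a knockdown the adjusted p of Spag6l was 0.116 in edgeR, 0.0438 with the replicate block and 0.0297 without Sin3a-knockdown replicate 3. Reads of Spag6l may be shared with its near-identical paralog Spag6, so its values are uncertain. Cfap70 averaged 6.90 ± 2.25 CPM in Sin3a knockdown, 2.27 ± 0.621 CPM in Fam60a knockdown and 3.88 ± 0.402 CPM in controls (SD, n = 3 each). Its Sin3a-knockdown libraries lay above all others. Spag16, which also sits on the central pair, was low and scattered, with 3.05, 5.76 and 0.406 CPM in the Sin3a-knockdown libraries, 0.755, 0.898 and 0 CPM in the Fam60a-knockdown libraries and 3.42, 2.6 and 1.34 CPM in the controls.

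Among genes of the dynein arms, the motor Dnah1 differed most. Dnah1 (chr14:31260375-31323896, minus strand), an inner arm heavy chain, had 2.29, 1.86 and 1.62 CPM in the Sin3a-knockdown libraries, 9.97, 10.9 and 10.9 CPM in the Fam60a-knockdown libraries and 9.77, 13.9 and 9.83 CPM in the controls. The Sin3a-knockdown libraries lay far below the other 6, which overlapped. Its log2 fold change was -2.49 ± 0.29 in Sin3a knockdown (-2.41 ± 0.29 without replicate 3), and in Fam60a knockdown it was -0.08 ± 0.25 (edgeR adjusted p = 0.978). Dnah2, another inner arm heavy chain, had 37, 37.3 and 39.4 CPM in the Sin3a-knockdown libraries, 43.7, 50.4 and 22.9 CPM in the Fam60a-knockdown libraries and 20.4, 23.9 and 28.3 CPM in the controls. Its Fam60a-knockdown and control libraries overlapped, its Sin3a-knockdown libraries lay above the controls, and its edgeR adjusted p in Fam60a knockdown was 0.262 at a log2 fold change of 0.69 ± 0.28. Dnah11, an outer arm heavy chain, averaged 6.27 ± 1.27, 3.33 ± 1.08 and 2.70 ± 1.28 CPM in Sin3a knockdown, Fam60a knockdown and controls (SD, n = 3 each), and its Sin3a-knockdown libraries lay above all others. Dnah12, of the inner arm, averaged 2.80 ± 1.10, 2.08 ± 0.637 and 5.60 ± 1.23 CPM in the same groups, with every control above every knockdown library (edgeR adjusted p = 0.0848 in Fam60a knockdown).

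The intermediate chains of the outer arm differed from each other. Dnai1 had 3.96, 4.09 and 4.87 CPM in the Sin3a-knockdown libraries, 5.14, 5.52 and 1.58 CPM in the Fam60a-knockdown libraries and 4.40, 4.05 and 3.43 CPM in the controls, and its groups overlapped. Dnai2 had 5.03, 5.39 and 8.12 CPM in the Sin3a-knockdown libraries, 10.6, 7.57 and 3.0 CPM in the Fam60a-knockdown libraries and 16.5, 14.3 and 13.3 CPM in the controls, and every control lay above every knockdown library, at log2 fold changes of -1.28 ± 0.43 in Sin3a knockdown and -1.05 ± 0.41 in Fam60a knockdown (edgeR adjusted p = 0.246). Without Sin3a-knockdown replicate 3 the log2 fold change of Dnai2 in Sin3a knockdown was -1.49 ± 0.43.

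The docking genes attach outer arms to the doublets, and in Sin3a knockdown they lay on both sides of the controls. Ccdc103, which helps the arms bind, had 11, 9.10 and 12.6 CPM in the Sin3a-knockdown libraries, 4.98, 4.11 and 3.95 CPM in the Fam60a-knockdown libraries and 4.24, 2.6 and 2.38 CPM in the controls. Sin3a-knockdown libraries lay above all others at a log2 fold change of 1.81 ± 0.31 (1.71 ± 0.31 without replicate 3), while Fam60a-knockdown and control libraries overlapped, with each Fam60a-knockdown library above the control of the same number (edgeR adjusted p = 0.537). The exons of Ccdc103 overlap Fam187a on the same strand, so its reads are uncertain in part. Ccdc151, of the docking complex, had 17.2, 15 and 21.9 CPM in the Sin3a-knockdown libraries, 6.04, 6.67 and 2.53 CPM in the Fam60a-knockdown libraries and 8.31, 10.3 and 6.11 CPM in the controls. It too was above all other libraries in Sin3a knockdown, at a log2 fold change of 1.12 ± 0.37 (0.97 ± 0.36 without replicate 3). In Fam60a knockdown the value was -0.69 ± 0.38 (edgeR adjusted p = 0.464). Ccdc114, also of the docking complex, had 22.3, 21.5 and 40.2 CPM in the Sin3a-knockdown libraries, 21.1, 27.6 and 12.5 CPM in the Fam60a-knockdown libraries and 36.7, 47.7 and 30.7 CPM in the controls, with Sin3a-knockdown replicate 3 among the controls and every Fam60a-knockdown library below them. Ttc25 averaged 10.1 ± 1.37 CPM in Sin3a knockdown, 6.99 ± 1.13 CPM in Fam60a knockdown and 12.9 ± 2.38 CPM in controls (SD, n = 3 each). In Fam60a knockdown the edgeR adjusted p was 0.236 for Ccdc114, and for Ttc25 it was 0.108, or 0.0326 without Sin3a-knockdown replicate 3.

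Preassembly factors fold dynein arms in the cytoplasm, and 1 library decided much of their values. Dnaaf1 had 1.83, 2.41 and 14.6 CPM in the Sin3a-knockdown libraries, 4.08, 4.36 and 9.33 CPM in the Fam60a-knockdown libraries and 1.95, 1.73 and 2.98 CPM in the controls. Sin3a-knockdown replicate 3 alone was high in its group, and the log2 fold change in Sin3a knockdown was 1.35 ± 0.79 with it and -0.08 ± 0.50 without it. In Fam60a knockdown Dnaaf1 stood at a log2 fold change of 1.40 ± 0.76 (edgeR adjusted p = 0.449, and 0.0428 without Sin3a-knockdown replicate 3). Zmynd10 had 2.90, 3.34 and 6.09 CPM in the Sin3a-knockdown libraries, 4.53, 6.16 and 4.43 CPM in the Fam60a-knockdown libraries and 1.47, 3.90 and 2.53 CPM in the controls, with every Fam60a-knockdown library above the controls (edgeR adjusted p = 0.329). Dnaaf3 had 17.2, 19.9 and 24 CPM in the Sin3a-knockdown libraries, 19, 26.8 and 19.1 CPM in the Fam60a-knockdown libraries and 25.4, 35 and 27.1 CPM in the controls, with Sin3a-knockdown libraries below the controls and Fam60a-knockdown libraries overlapping them, each below the control of the same number. In Fam60a knockdown its edgeR adjusted p was 0.442, and 0.00674 with the replicate block and without Sin3a-knockdown replicate 3. Exons of Dnaaf3 overlap Tnni3 on the same strand, so its reads are uncertain in part.

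The nexin link joins neighbouring doublets, and the Ccdc39-Ccdc40 ruler sets the spacing of arms and spokes along them. Ccdc40 (chr11:119228572-119265238, plus strand) had 22.6, 20.4 and 23.2 CPM in the Sin3a-knockdown libraries, 12.4, 10.5 and 8.85 CPM in the Fam60a-knockdown libraries and 28.7, 25.9 and 27 CPM in the controls. Fam60a-knockdown libraries lay below all others, and the Sin3a-knockdown libraries lay below the controls. Ccdc40 fell by 1.36 on the log2 scale in Fam60a knockdown (SE 0.20, edgeR adjusted p = 0.0114, lower in 3 of 3 libraries), to 0.390 of the control mean, and stood at a log2 fold change of -0.30 ± 0.19 in Sin3a knockdown. The adjusted p of Ccdc40 in edgeR passed 0.05 without Fam60a-knockdown replicate 2 (0.0612), control replicate 1 (0.0787) or control replicate 2 (0.0641), within a range of 1.30e-09 to 0.0787 over all alternatives. Ccdc39, its partner, had 10.2, 11.1 and 6.50 CPM in the Sin3a-knockdown libraries, 4.53, 4.62 and 2.06 CPM in the Fam60a-knockdown libraries and 6.19, 13.4 and 4.62 CPM in the controls. Its control and Sin3a-knockdown libraries overlapped, and its edgeR adjusted p in Fam60a knockdown was 0.302 at a log2 fold change of -1.11 ± 0.48.

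Ccdc65, a subunit of the nexin link, had 16.2, 14.1 and 11.8 CPM in the Sin3a-knockdown libraries, 4.83, 5.77 and 2.53 CPM in the Fam60a-knockdown libraries and 5.54, 3.90 and 3.43 CPM in the controls. Every Sin3a-knockdown library was above all others, at a log2 fold change of 1.72 ± 0.35 (1.82 ± 0.34 without replicate 3), while Fam60a-knockdown and control libraries overlapped. Gas8, of the same complex, had 43, 39.6 and 138 CPM in the Sin3a-knockdown libraries, 38.8, 37.7 and 32.6 CPM in the Fam60a-knockdown libraries and 38.4, 36.3 and 38.9 CPM in the controls. It was high in Sin3a-knockdown replicate 3 alone, and the log2 fold change in Sin3a knockdown was 0.93 ± 0.43 with that library and 0.13 ± 0.12 without it. Drc1, the third subunit listed, averaged 6.90 ± 0.810 CPM in Sin3a knockdown, 4.75 ± 1.25 CPM in Fam60a knockdown and 4.51 ± 0.322 CPM in controls (SD, n = 3 each), and its Sin3a-knockdown libraries lay above all others.

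Cfap43 and Cfap44 form the tether of an inner arm motor. Cfap44 had 7.62, 12.1 and 6.09 CPM in the Sin3a-knockdown libraries, 2.42, 4.23 and 1.11 CPM in the Fam60a-knockdown libraries and 1.30, 1.01 and 0.447 CPM in the controls. Every Sin3a-knockdown library lay above all others, and its log2 fold change was 3.22 ± 0.57 in Sin3a knockdown (3.40 ± 0.55 without replicate 3) and 1.50 ± 0.58 in Fam60a knockdown (edgeR adjusted p = 0.243). Cfap43 had 8.38, 10.8 and 4.87 CPM in the Sin3a-knockdown libraries, 3.32, 4.75 and 1.42 CPM in the Fam60a-knockdown libraries and 3.58, 3.18 and 3.58 CPM in the controls, again with the Sin3a-knockdown libraries above all others, at a log2 fold change of 1.24 ± 0.44 (1.47 ± 0.40 without replicate 3). Exons of Cfap43 overlap Gm22240 on the same strand.

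Tektins run as filaments along the doublets, and Cfap52 lies inside their microtubules. Tekt2 (chr4:126322121-126325688, minus strand) had 1.68, 1.86 and 2.03 CPM in the Sin3a-knockdown libraries, 6.65, 7.57 and 3.79 CPM in the Fam60a-knockdown libraries and 9.77, 9.40 and 7.75 CPM in the controls. Sin3a-knockdown libraries lay below all others at a log2 fold change of -2.28 ± 0.34 (-2.33 ± 0.37 without replicate 3), and Fam60a-knockdown libraries lay below the controls (edgeR adjusted p = 0.427). Tekt1 had 5.95, 6.31 and 8.12 CPM in the Sin3a-knockdown libraries, 5.44, 6.03 and 2.21 CPM in the Fam60a-knockdown libraries and 11.6, 11.6 and 12.5 CPM in the controls, with every control above every knockdown library (edgeR adjusted p = 0.0823 in Fam60a knockdown, and 0.0218 without Sin3a-knockdown replicate 3). Cfap52 went the other way in Sin3a knockdown, with 16.3, 13.6 and 9.34 CPM in the Sin3a-knockdown libraries, 3.47, 3.21 and 2.37 CPM in the Fam60a-knockdown libraries and 4.56, 2.75 and 2.83 CPM in the controls. Its Sin3a-knockdown libraries lay above all others at a log2 fold change of 1.97 ± 0.33 (2.15 ± 0.30 without replicate 3), and Fam60a-knockdown and control libraries overlapped (edgeR adjusted p = 0.962).

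Ccdc81 (chr7:89866148-89903629, minus strand), a protein of centriolar satellites, had the largest log2 fold change of the tested members in Sin3a knockdown. It had 11.1, 9.66 and 11 CPM in the Sin3a-knockdown libraries, 2.27, 3.59 and 0.949 CPM in the Fam60a-knockdown libraries and 0.163, 0.723 and 0.596 CPM in the controls. The 3 groups did not overlap, with 73, 52 and 27 reads in Sin3a knockdown, 15, 28 and 6 in Fam60a knockdown and 1, 5 and 4 in controls. Scaled to library totals the summed reads gave a ratio of 20.3 in Sin3a knockdown (95% exact binomial interval 10.7 to 43.2, counting error only) and 4.69 in Fam60a knockdown (2.34 to 10.4). The rise of Ccdc81 in Sin3a knockdown had been seen before the list was made, so its rank and interval there are a description only. The log2 fold change was 4.34 ± 0.56 in Sin3a knockdown, and in Fam60a knockdown it was 2.15 ± 0.58 (edgeR adjusted p = 0.0917, 0.0361 without Sin3a-knockdown replicate 3, within 0.00619 to 0.291 over all alternatives). Ccdc170 averaged 5.11 ± 4.75 CPM in Sin3a knockdown, 3.51 ± 0.467 CPM in Fam60a knockdown and 2.27 ± 0.271 CPM in controls (SD, n = 3 each), and replicate 3 alone was high in Sin3a knockdown, at log2 fold changes of 1.03 ± 0.59 with it and 0.081 ± 0.34 without it. Ak7, an adenylate kinase of motile cilia, had 37, 36.6 and 40.6 CPM in the Sin3a-knockdown libraries, 37.9, 34.3 and 25.1 CPM in the Fam60a-knockdown libraries and 55.2, 43.5 and 51.5 CPM in the controls, with every control above every knockdown library (edgeR adjusted p = 0.121 in Fam60a knockdown, and 0.0279 without Sin3a-knockdown replicate 3).

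**Figure D2:**
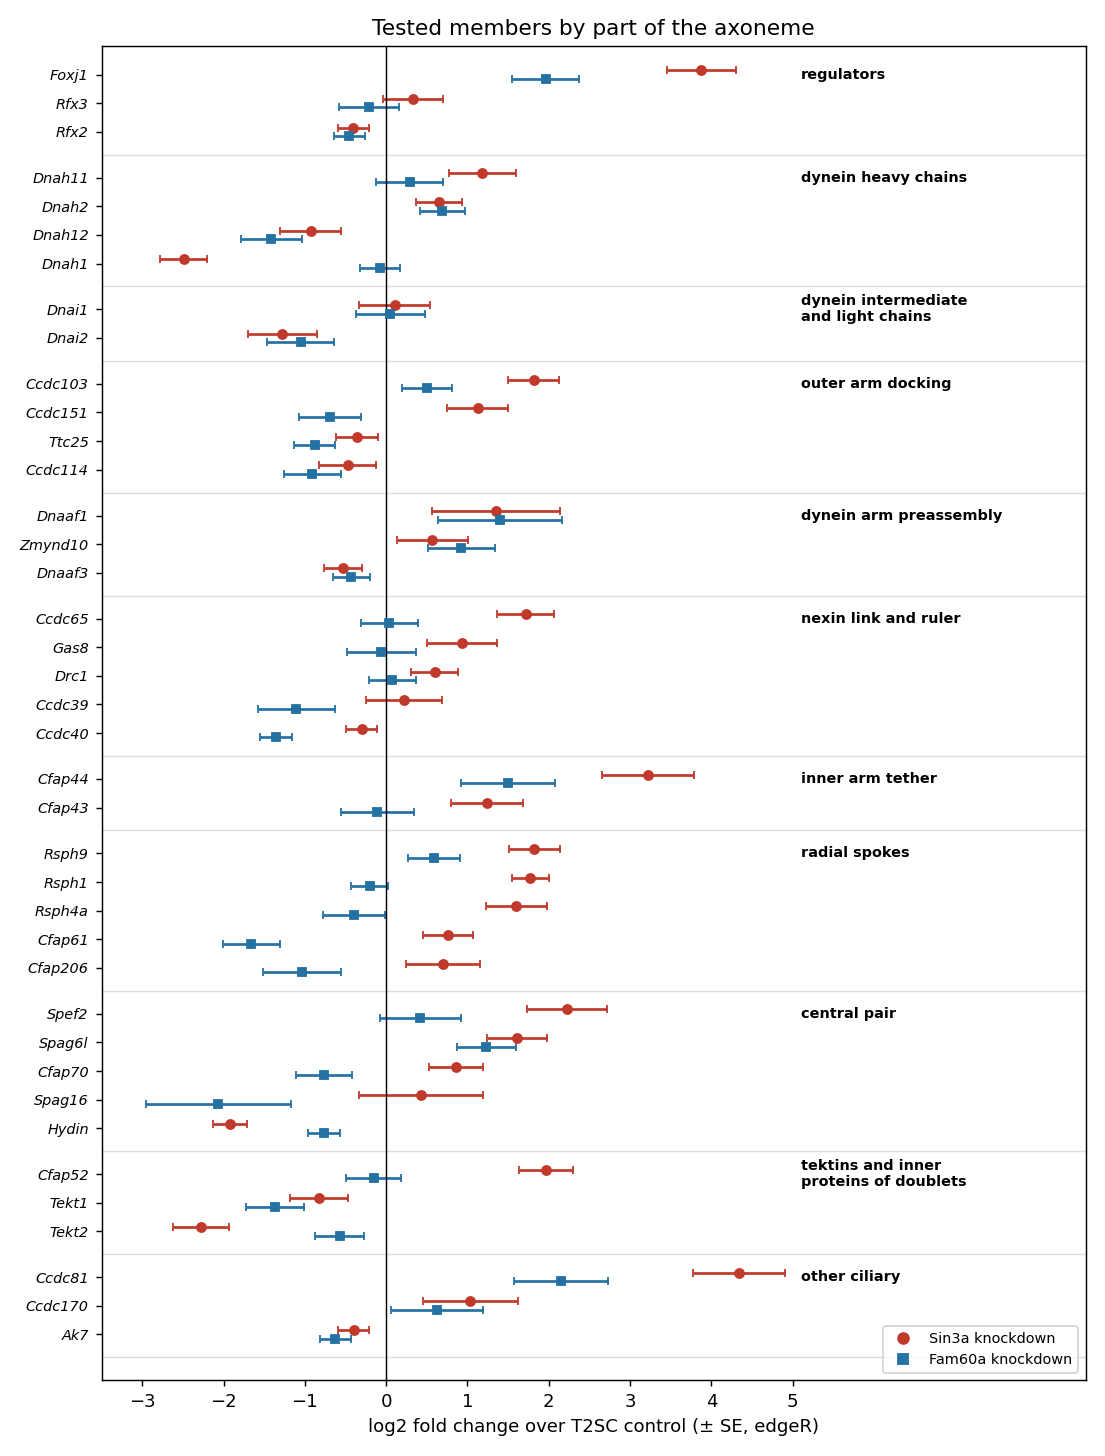
log2 fold change over T2SC controls (x axis, ± SE derived from the edgeR F statistic, all 9 libraries) of the 39 tested members, grouped by place in the cilium and ordered by the value in Sin3a knockdown (circles), with Fam60a knockdown as squares. Radial spoke genes lie between 0.69 and 1.82 in Sin3a knockdown, while dynein, docking, central pair and tektin genes lie on both sides of 0.

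The 11 members that were not tested had few reads, at most 82 over the 9 libraries. Cfap54, a central pair protein, had 21, 28 and 2 reads in Sin3a knockdown, 6, 6 and 4 in Fam60a knockdown and 3, 8 and 4 in controls, a ratio of 4.54 for Sin3a knockdown over controls on library totals (95% exact binomial interval 2.51 to 8.69). Scaled to depth, the 2 reads of Sin3a-knockdown replicate 3 fell within the range of the controls, so that ratio rests on replicates 1 and 2. The interval pools the reads of each group and does not cover this difference between libraries. Dnah9, an outer arm heavy chain, had 12 reads in Sin3a knockdown, 0 in Fam60a knockdown and 5 in controls, with a ratio of 3.20 in Sin3a knockdown (1.05 to 11.6). Lrrc6, a preassembly factor, had 9, 5 and 2 reads in the same groups. The outer arm heavy chain Dnah5 had 15, 11 and 16, Cfap46 17, 14 and 23, Cfap53 12, 6 and 9, Cfap74 7, 9 and 11, and the inner arm light chain Dnali1 1, 5 and 8. Armc4, a docking protein, had 4 reads, all in Fam60a knockdown, Spag17 had 1 read, in a control library, and Tekt4 had 0 reads in all 9 libraries.

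Counted over the tested members, the comparisons read as follows. In Fam60a knockdown against control, 1 of 39 members was higher past the threshold (edgeR adjusted p under 0.05 over all genes), Foxj1, beside 1.49% of all tested genes, and 2 were lower, Ccdc40 and Cfap61, beside 1.44% (2.92% in either direction). The median log2 fold change was -0.20 over the 39 members and -0.02 over all tested genes, and 17 of the 39 had an unadjusted p under 0.05, beside 15.7% of all tested genes. With the replicate block the count was 2 higher, with Spag6l added, and 2 lower, beside 3.41% and 2.72% of all genes. Without Sin3a-knockdown replicate 3, which changes the estimate of the spread, the members past the threshold were 4 higher and 8 lower of 40, beside 9.16% and 7.77% of all genes. The count of members was 0 without Fam60a-knockdown replicate 2 or control replicates 1 or 2, where 11 to 46 of all genes were called. It was 1 without Fam60a-knockdown replicates 1 or 3, Sin3a-knockdown replicate 2 or control replicate 3, where 92 to 312 of all genes were.

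In Sin3a knockdown against control, 11 of 39 members were higher past the threshold and 3 were lower, beside 3.91% and 6.28% of all tested genes (10.2% in either direction). The higher ones were Foxj1, Ccdc103, Ccdc65, Cfap44, Rsph1, Rsph4a, Rsph9, Spag6l, Spef2, Cfap52 and Ccdc81, and the lower ones Dnah1, Hydin and Tekt2. Since these values took part in choosing the genes, the counts are a description only. Medians of the log2 fold change were 0.69 over the members and -0.01 over all tested genes. With the replicate block the counts were 12 and 3, with Dnah11 added, beside 6.33% and 8.63% of all genes. Without replicate 3 the counts were 14 and 4 of 40, with Cfap43, Cfap54 and Cfap70 added among the higher and Dnai2 among the lower, beside 11.0% and 13.5% of all genes. Rsph4a no longer passed with the 6 libraries compared or without any 1 library other than Fam60a-knockdown replicate 3 and Sin3a-knockdown replicate 3, at log2 fold changes of 1.36 to 1.78. Spag6l and Spef2 no longer passed without Sin3a-knockdown replicates 1 or 2 or any control, at 1.44 to 1.79 and 1.94 to 2.45, nor did Ccdc65 without Sin3a-knockdown replicate 1 or control replicates 2 or 3, at 1.60 to 1.68. Summed over all 50 genes, levels were 657 to 745 CPM in Sin3a knockdown, 366 to 524 CPM in Fam60a knockdown and 583 to 598 CPM in controls.

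Sin3a knockdown set directly against Fam60a knockdown, which holds the same Sin3a-knockdown libraries, had 10 members higher and 3 lower past the threshold, beside 0.878% and 2.18% of all tested genes (3.06% in either direction). The higher ones were Foxj1, Ccdc151, Ccdc40, Ccdc65, Rsph1, Rsph4a, Cfap61, Cfap70, Cfap52 and Ccdc81, and the lower ones Dnah1, Hydin and Tekt2. Log2 fold changes of Sin3a over Fam60a knockdown were 1.91 ± 0.38 for Foxj1, 1.97 ± 0.23 for Rsph1, 2.42 ± 0.35 for Cfap61 and -2.42 ± 0.28 for Dnah1. With the replicate block the counts were 14 and 3, with Ccdc103, Cfap44, Rsph9 and Spef2 added, beside 1.41% and 3.24% of all genes. The counts depend on the fit, with 18 and 3 of 40 without Sin3a-knockdown replicate 3 (beside 6.21% and 8.49% of all genes) and 0 of 38 when edgeR was fitted to the 6 libraries of these groups alone. That fit called 0 of 13843 genes, where 21 members and 1760 genes had an unadjusted p under 0.05. DESeq2 on all 9 libraries had 16 members higher and 3 lower, beside 522 and 746 of 23714 genes. With all 3 groups in the edgeR model, 2 members passed without Sin3a-knockdown replicates 1 or 2 or Fam60a-knockdown replicates 1 or 2. Over all genes 48 to 69 were called in those fits. Without Fam60a-knockdown replicate 3 or any control, 4 to 6 members passed, beside 179 to 249 of all genes.

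Set on a common scale per exon length, members differed widely in level. In controls the highest was Rfx2 at 19.4 CPM per kilobase (kb), then Dnaaf3 at 13.1, Ak7 at 11.9, Gas8 at 9.44 and Rsph1 at 8.87 CPM per kb. Foxj1 stood at 17 CPM per kb in Sin3a knockdown, 4.46 in Fam60a knockdown and 1.14 in controls. Rsph1, at 30.3 CPM per kb in Sin3a knockdown, against 7.70 in Fam60a knockdown and 8.87 in controls, was the highest member in Sin3a knockdown. Hydin stood at 0.894, 1.98 and 3.38 CPM per kb in the same groups, and Dnah5 at 0.0664, 0.0331 and 0.0513. The genes lie on 17 chromosomes, with 9 of the 50 on chromosome 11 (18%, beside 8.65% of tested genes).

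**Figure D3:**
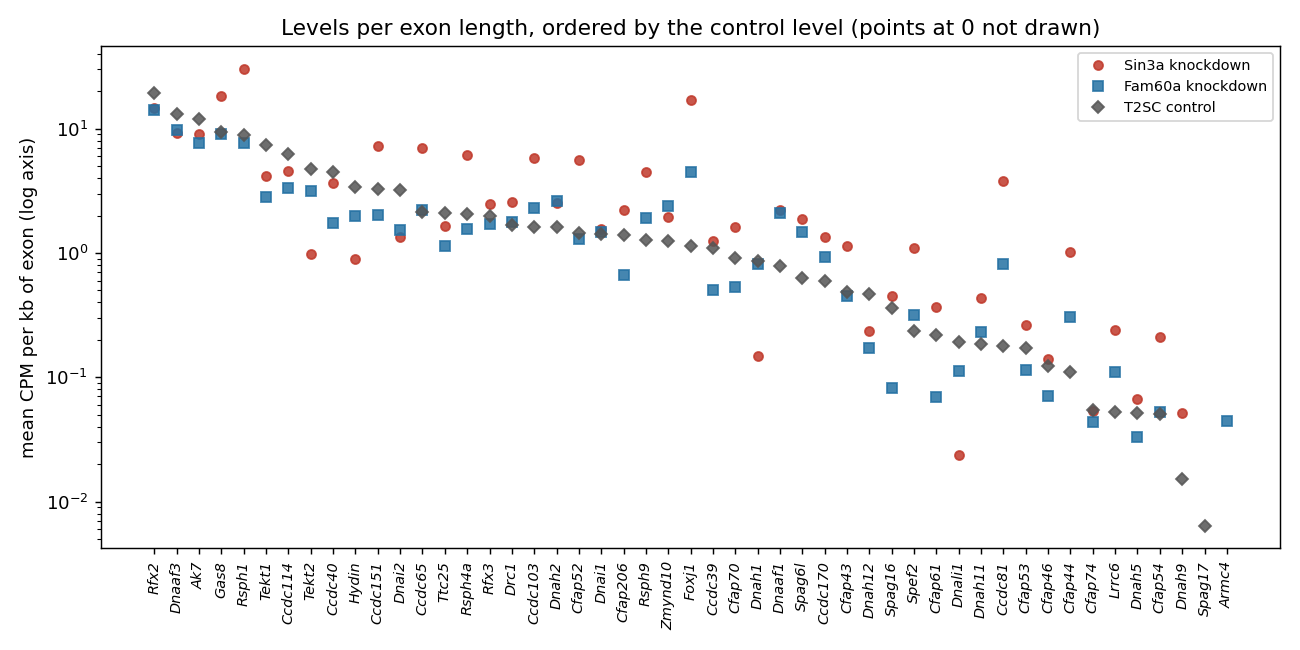
Mean CPM per kb of exon (log y axis) of each member with at least 1 read, from the highest to the lowest control level, in Sin3a knockdown (circles), Fam60a knockdown (squares) and T2SC controls (diamonds), without error bars. Rsph1 and Foxj1 reach 30.3 and 17 CPM per kb in Sin3a knockdown, and the rightmost genes lie under 0.1 CPM per kb in most groups.

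Other genes of the motile cilium, taken as a second list without the members, were tested for 49 of 74 matched genes. This list and those below were chosen with earlier results of these data known, so their counts and adjusted p are a description. In Sin3a knockdown 10 were higher and 2 lower (edgeR adjusted p under 0.05, beside the 3.91% and 6.28% above), with a median log2 fold change of 0.62, 15 and 2 passed with the replicate block (beside 6.33% and 8.63% of all genes), and 21 and 2 of 52 without replicate 3 (beside the 11.0% and 13.5% above). Kif9, a kinesin of the central pair, averaged 18.2 ± 0.784 CPM in Sin3a knockdown, 7.0 ± 0.679 CPM in Fam60a knockdown and 6.09 ± 0.667 CPM in controls (SD, n = 3 each), and rose in Sin3a knockdown by 1.58 ± 0.22 on the log2 scale (edgeR adjusted p = 0.00431). Cfap77, a protein inside the doublets, rose by 1.50 ± 0.24 (edgeR adjusted p = 0.00682). Ccdc146 rose as well, with 14, 9 and 6 reads in Sin3a knockdown, 0, 2 and 1 in Fam60a knockdown and 1, 2 and 1 in controls (edgeR adjusted p = 0.0111, and 0.0566 without control replicate 1). Dnah8 and Dnah17, outer arm heavy chains known from sperm, fell by 0.88 and 1.38 on the log2 scale (edgeR adjusted p = 0.0371 and 0.0401). The call of Dnah8 was lost with the 6 libraries compared (0.0907 in edgeR) and without any 1 library other than Fam60a-knockdown replicate 2, Sin3a-knockdown replicate 3 and control replicate 3 (0.0546 to 0.146 in edgeR), and that of Dnah17 with the 6 libraries compared (0.063), with no filter on low counts (0.0519) and without any 1 library other than Fam60a-knockdown replicate 3 and Sin3a-knockdown replicate 3 (0.0587 to 0.149). In Fam60a knockdown 0 of the 49 genes passed in edgeR, where 5 had an unadjusted p under 0.05. DESeq2 called 1 lower (beside 545 of 23714 genes). The median log2 fold change in Fam60a knockdown was -0.30, with 15 of the 49 above 0. Over all tested genes the median was -0.02, with 46.6% above 0. Without Sin3a-knockdown replicate 3, 1 higher and 4 lower of 52 passed (beside 9.16% and 7.77% of all genes).

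Genes of intraflagellar transport and the primary cilium, all 48 tested, had 3 higher and 1 lower in Sin3a knockdown (beside 3.91% and 6.28% of all tested genes), 5 and 2 with the replicate block (beside 6.33% and 8.63%), and 15 and 3 without replicate 3 (beside 11.0% and 13.5%). Wdr35, of the transport complex that returns cargo, rose by 0.77 ± 0.14 on the log2 scale (edgeR adjusted p = 0.0126). Ift22 (0.85 ± 0.18, edgeR adjusted p = 0.0191) and Kif3b (0.47 ± 0.10, edgeR adjusted p = 0.0233) rose, and Bbs2 fell by 0.69 (edgeR adjusted p = 0.0202). The calls of Ift22, Kif3b and Bbs2 were lost with the 6 libraries compared (0.0636, 0.0770 and 0.0721 in edgeR), without control replicate 1 (0.0765, 0.0693 and 0.0777 in edgeR) or control replicate 2 (0.0727, 0.0894 and 0.0929), those of Ift22 and Kif3b without control replicate 3 (0.0646 and 0.0705), those of Kif3b and Bbs2 without Sin3a-knockdown replicate 1 (0.0751 and 0.0525), and that of Kif3b without Fam60a-knockdown replicate 1 (0.0503). In Fam60a knockdown 0 of the 48 passed in edgeR, where 3 had an unadjusted p under 0.05, and 0 passed in DESeq2. In edgeR 1 was lower with the replicate block (beside 2.72% of all genes), and 1 higher and 1 lower without Sin3a-knockdown replicate 3 (beside 9.16% and 7.77%). Of 26 genes of the sperm flagellum and spermatid, 8 had 0 reads everywhere and 5 were tested. Of these 5, 2 fell in Sin3a knockdown (beside 6.28% of all tested genes), and 3 without replicate 3 (beside 13.5%). Ldhc, the lactate dehydrogenase of sperm, fell by 2.24 in Sin3a knockdown and by 1.78 in Fam60a knockdown on the log2 scale (edgeR adjusted p = 0.00726 and 0.0282). Its call in Fam60a knockdown was lost without any Fam60a-knockdown or control replicate (0.0836 to 0.120). Qrich2, a protein of the sperm tail, had 2 reads in Sin3a knockdown, 19 in Fam60a knockdown and 38 in controls (edgeR adjusted p = 0.00638 in Sin3a knockdown).

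**Figure D4:**
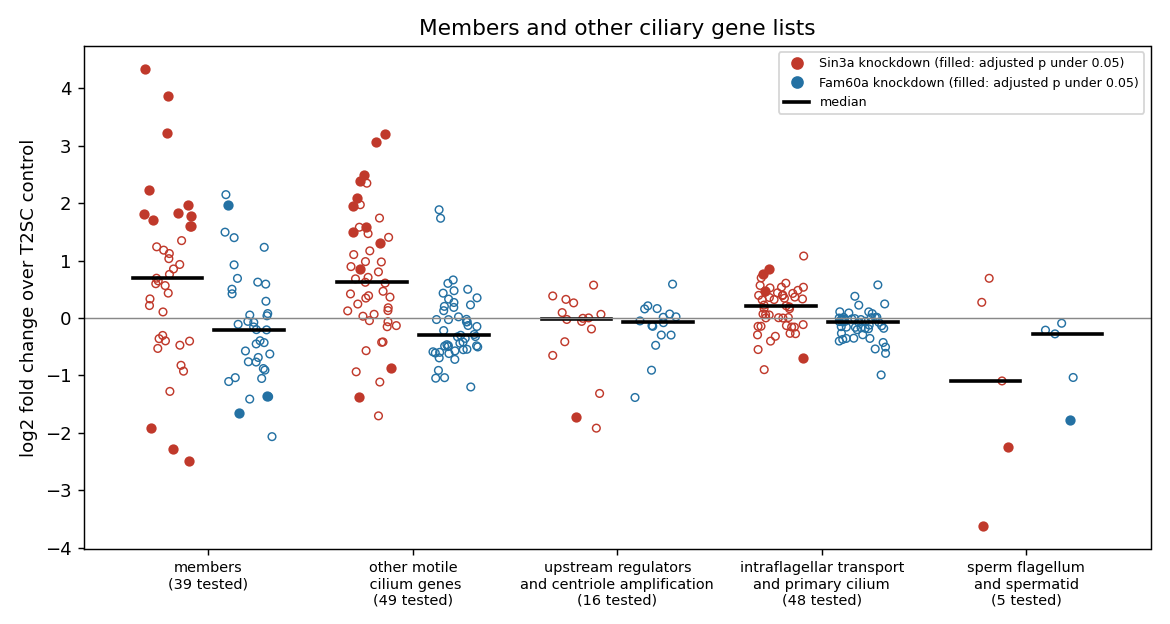
log2 fold change over T2SC controls (y axis) of tested genes in the members and 4 other lists (x axis, points spread sideways), with Sin3a knockdown left of Fam60a knockdown in each, filled points past an edgeR adjusted p of 0.05 and bars at medians. In Sin3a knockdown medians are 0.69 for members, 0.62 for other motile cilium genes and 0.20 for transport and primary cilium genes. In Fam60a knockdown the same medians are -0.20, -0.30 and -0.07.

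Among the factors that act before Foxj1 or beside it in ciliated cells, Gmnc, Mcidas, Noto and Deup1 had few reads, while 16 of the 21 genes in the list of upstream regulators and centriole amplification had enough to be tested. Gmnc, the geminin family member that starts the programme, had 0 reads in Sin3a knockdown, 14 in Fam60a knockdown and 5 in controls. Mcidas, its partner in starting it, had 1 read, in a control library, and Noto, which acts before Foxj1 in the mouse node, had 0 in all libraries. Deup1, of the organelle that multiplies centrioles, had at most 4 reads in any library. Of the 16, 0 were higher and 1 lower in Sin3a knockdown by edgeR (beside 3.91% and 6.28% of all tested genes), with 4 at an unadjusted p under 0.05. DESeq2 called 3 lower there (beside 1349 of 23714 genes). The edgeR counts were 0 and 2 with the replicate block (beside 6.33% and 8.63% of all genes) and 1 and 3 without replicate 3 (beside 11.0% and 13.5%). In Fam60a knockdown 0 passed in edgeR, with 1 at an unadjusted p under 0.05 and 1 lower by DESeq2 (beside 545 of 23714 genes). Without Sin3a-knockdown replicate 3, 1 was lower in edgeR in Fam60a knockdown (beside 7.77% of all genes). The lower one in Sin3a knockdown, Myb, which acts early in multiciliated cells, fell by 1.72 ± 0.34 on the log2 scale (edgeR adjusted p = 0.0154). That call was lost without Sin3a-knockdown replicate 2 or control replicates 1 or 2 (0.0577, 0.0571 and 0.0577 in edgeR).

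Markers of cell types that carry motile cilia were read beside these values. Summed over 12 markers of multiciliated cells, levels were 29.7 to 48.7 CPM in Sin3a knockdown, 25.5 to 38.4 CPM in Fam60a knockdown and 49.4 to 63.0 CPM in controls, and Sntn and Tmem212 were at 0 reads in every library. Of the 5 tested, 0 passed in edgeR, with 1 in Sin3a and 2 in Fam60a knockdown at an unadjusted p under 0.05. DESeq2 called 2 lower in each, and the replicate block 1 lower in Sin3a knockdown (beside 8.63% of all genes). Of 23714 genes, DESeq2 called 1148 higher and 1349 lower in Sin3a knockdown and 611 and 545 in Fam60a knockdown. All DESeq2 counts of markers here stand beside these. Summed over 7 markers of node and notochord, levels were 58.5 to 163 CPM in Sin3a knockdown, highest in replicate 3, 68.4 to 91.5 CPM in Fam60a knockdown and 25.6 to 53.5 CPM in controls. Of the 4 tested, 0 passed in edgeR, with 2 in Sin3a and 1 in Fam60a knockdown at an unadjusted p under 0.05. DESeq2 called 2 higher in Sin3a and 0 in Fam60a knockdown, and the replicate block 1 higher in each (beside 6.33% and 3.41% of all genes). Markers of primitive and visceral endoderm summed to 930 to 1377 CPM in Sin3a knockdown, 862 to 1553 CPM in Fam60a knockdown and 261 to 1167 CPM in controls. Of these, Gata6 rose in Sin3a knockdown by 1.29 ± 0.30 on the log2 scale (edgeR adjusted p = 0.0290). That call was lost with the 6 libraries compared (0.0916 in edgeR) and without Sin3a-knockdown or Fam60a-knockdown replicates 1 or 2 or control replicates 1 or 2 (0.0507 to 0.108). With the replicate block 5 of the 7 endoderm markers tested were higher in Sin3a knockdown (beside 6.33% of all genes). In Fam60a knockdown 0 of the 7 passed in edgeR, 2 had an unadjusted p under 0.05, DESeq2 called 2 higher, and the replicate block 3 (beside 3.41% of all genes). The part of node and endoderm markers in the member values was not tested. Markers of choroid plexus and ependyma (0 of 2 tested past the threshold in edgeR or DESeq2, 0 at an unadjusted p under 0.05) and of male germ cells (0 of 4 in edgeR, 1 in Fam60a knockdown at an unadjusted p under 0.05 and lower by DESeq2) overlapped between groups, with sums of 71.3 to 118 and 72.7 to 166 CPM in Sin3a knockdown, 79.3 to 101 and 87.0 to 121 CPM in Fam60a knockdown and 66.5 to 118 and 121 to 148 CPM in controls. Of 2 tested markers of neural progenitors Pax6 fell in Sin3a knockdown by 2.74 on the log2 scale (edgeR adjusted p = 0.00202), and in Fam60a knockdown 0 of the 2 passed in edgeR or DESeq2, with 1 at an unadjusted p under 0.05. All 5 markers found summed to 17.2, 16.5 and 116 CPM in the Sin3a-knockdown libraries, 30.7 to 45.5 CPM in Fam60a knockdown and 36.0 to 40.4 CPM in controls, so that Sin3a-knockdown replicate 3 lay above every control and replicates 1 and 2 below every control. The 8 stem cell markers, 0 of them past the threshold in edgeR or DESeq2 in either knockdown (unadjusted p under 0.05 for 0 in Sin3a and 1 in Fam60a knockdown), summed to 1221 to 1378 CPM in Sin3a knockdown, 1074 to 1230 CPM in Fam60a knockdown and 1255 to 1386 CPM in controls, and all 8 had enough reads to be tested. Without Sin3a-knockdown replicate 3, edgeR called 1 marker each of node, germ cells and endoderm higher and both neural markers lower in Sin3a knockdown (beside 11.0% and 13.5% of all genes), and in Fam60a knockdown 1 endoderm marker higher and 2 multiciliated, 1 germ cell, 1 neural and 1 stem cell marker lower (beside 9.16% and 7.77%).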

How the data were processed

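RNA of 9 libraries of E14 cells, 3 per group, was measured as read counts per gene. The authors deposited 1 table of whole counts per library, not normalized. Per the submitters' processing notes, reads were aligned with STAR 2.4.0j and handled with Picard and featureCounts of Subread, and per the file headers duplicate reads had been removed, which caps the counts of highly expressed genes. Which genome build and annotation lay behind the counts is not given in the sources used here. Symbols and positions came from GENCODE M21 on GRCm38 by gene ID, which covered 32937 of 37990 genes.

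The counts were fitted with edgeR 4.0.16 (limma 3.58.1, R 4.3.3), using filterByExpr, TMM scaling, 1 model of 3 groups over all 9 libraries, robust quasi-likelihood F-tests and Benjamini-Hochberg adjustment over 14465 genes, with calls at an adjusted p under 0.05. CPM use TMM-scaled totals, and exact binomial intervals cover counting error only. Each SE of an edgeR log2 fold change was derived as its absolute value divided by the square root of the F statistic. The biological coefficient of variation was 0.25. On simulated data for 14603 genes, 164 of 200 genes changed 3-fold were called. The simulation had the same spread in every library, no outlying library, no replicate effect and changes only in genes above a count cut. The share called in the real data may therefore differ. Alternatives were DESeq2 1.42.0, its size factors in edgeR, no filter, the replicate block, the 6 libraries compared and each library left out. A further alternative joined the replicate block with leaving out Sin3a-knockdown replicate 3. Deviations from group means correlated for same-numbered libraries (9 pairs, r 0.178 to 0.622) and less for others (18 pairs, -0.448 to 0.113). Deviations cancel within a group, so these ranges are not independent of each other. Same-numbered libraries thus shared part of their spread, which only fits with the replicate block take into account. Overlap between groups is read without pairing libraries by number. The labels name biological replicates without saying what each number marks.

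The members, the 11 other lists and their tests were chosen with earlier results of these data known. Named were Foxj1, Rfx2, Rfx3, members called in Fam60a knockdown, the 12 largest changes in Sin3a knockdown, the 3 members with the most reads per class, members at 0 in controls and up to 3 called genes per direction of other lists. Dnah12, Ccdc39, Drc1, Cfap206, Cfap70, Spag16 and the 11 untested members fall outside that rule and were named, with their values seen, to complete their classes. List symbols without a match were 5 of 227.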

Additional observations from a re-analysis of the deposited data

How the results depend on the processing

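RLE size factors in edgeR moved no count of calls by over 1.5 times, nor did leaving out the filter on low counts. In Fam60a knockdown against control, 423 genes and 3 members were called, against 887 genes with the replicate block, 1827 and 7 with the 6 libraries compared, 1156 and 10 with DESeq2, and 5842 and 23 with the replicate block and without Sin3a-knockdown replicate 3. Leaving out 1 library gave 11 to 2495 genes and 0 to 12 members. In Sin3a knockdown against control, 1475 genes and 14 members were called, against 739 genes with 6 libraries, 2497 with DESeq2, and 6975 genes and 28 members with the block and without replicate 3, and 521 to 3606 genes and 10 to 18 members with 1 library left out. Sin3a against Fam60a knockdown called 443 genes and 13 members, against 672 genes with the block, 1268 with DESeq2, 0 and 0 in edgeR with 6 libraries, 5321 and 25 with the block and without replicate 3, and 48 to 2166 genes and 2 to 21 members with 1 library left out. The causes of these shifts were not tested, and fewer libraries leave fewer degrees of freedom.

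Over the named genes, 1131 values kept direction and side of the threshold under an alternative, 53 gained a call, 134 lost one and 15 turned direction, none of these called. In Fam60a knockdown these were Rfx3 (0.072) and Dnah1 (0.13) without control replicate 2, Cfap52 (0.14) without control replicate 1, Gas8 (0.017) and Cfap43 (0.23) without Fam60a-knockdown replicate 3, Ccdc65 without Fam60a-knockdown replicates 1 (-0.03) and 2 (-0.21) and control replicates 2 (-0.0077) and 3 (-0.08), and Dnai1 with the block (-0.0083) and without Fam60a-knockdown replicates 1 (-0.14) and 2 (-0.23) and control replicate 3 (-0.02). In Sin3a knockdown they were Dnai1 with the block and without replicate 3 (-0.24) and Dnaaf1 without replicate 3 (-0.077). With 1 library left out, log2 fold changes in Fam60a knockdown ranged between -0.52 and 0.072 for Rfx3, -0.14 and 0.13 for Dnah1, -0.27 and 0.14 for Cfap52, -0.21 and 0.31 for Ccdc65, -0.23 and 0.43 for Dnai1, -0.10 and 0.017 for Gas8 and -0.53 and 0.23 for Cfap43, and in Sin3a knockdown between 0.027 and 0.23 for Dnai1 and -0.077 and 1.84 for Dnaaf1. Beside the calls given with their results, the replicate block changed no other call of a member. Depth limits the 11 untested members, which had at most 82 reads over the 9 libraries.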
